A study of Mus musculus with 16 samples.

Results

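Cytochrome P450 enzymes are haem proteins that insert an oxygen atom from molecular oxygen into fatty acids, sterols, steroids, vitamins, drugs and pollutants. Most sit in the endoplasmic reticulum and take electrons from cytochrome P450 reductase or cytochrome b5, while a few sit in mitochondria and take them from the iron-sulphur protein ferredoxin. Genes whose symbols share a family number and a letter (Cyp2j, for example) form a subfamily of closely related sequences. In adipose tissue the family is known for making and breaking down signalling lipids, such as the epoxides of arachidonic acid, and for clearing foreign compounds stored in fat.

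The cytochrome P450 genes described here are those whose array symbol is Cyp followed by a number, a letter and a number, or is Cyp51. Of the 45101 probe sets, 98 named exactly 1 such gene, and they stood for 73 of the 18195 genes measured, in 35 subfamilies. A single probe set stood for 54 of the genes, 2 probe sets for 13 genes and 3 for 6 genes. By their RefSeq annotation, Cyp2d13 and Cyp4f41-ps are transcribed pseudogenes.

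White fat from under the skin (sWAT) was compared with the brown fat between the shoulder blades (BAT) in untreated LACA mice, a laboratory stock, which the labels give as male, chow-fed and weighing 25 ± 3 g, with no age. Each tissue had 4 replicates numbered 1 to 4, and each replicate had 2 Affymetrix arrays, 16 arrays in all, whose values were averaged. The values are log2 units relative to the median of the probe set over the 16 arrays, so they compare samples but give no level of a gene, and a gene equal in both tissues cannot be told apart from a gene with no signal in either. BAT minus sWAT was fitted in limma, blocked by replicate number, errors of a difference are standard errors (SE), and a gene was called where the Benjamini-Hochberg adjusted p over all genes was under 0.05. In whole tissue, a lower share of the cells that hold an RNA and less of that RNA in each cell cannot be told apart.

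The samples did not all follow their labels. Xist, which is transcribed in female cells, measured 5.74, 6.26 and 6.36 for BAT numbers 1 to 3, but -0.26 for BAT number 4 and -0.27 to -0.11 for all of sWAT. The methods describe both tissues taken from each animal, which these values go against for numbers 1 to 3, so the difference within pair 4 is given below as a separate value with no test. The second array of BAT replicate 1 and the first array of sWAT replicate 3 had 5′ minus 3′ differences of Gapdh and Actb probe sets of -3.56 and -4.79 log2 units, against -1.23 to 0.46 on the other arrays. BAT held its markers, with 9 of 9 brown adipocyte genes higher in BAT, and 9 of 9 skeletal muscle fibre genes were higher there too, averaging 2.10, 3.12, 2.15 and 3.92 over BAT numbers 1 to 4 but -1.96 to -1.49 over sWAT. In sWAT 5 of 5 B cell, 5 of 6 T cell and 6 of 7 fibroblast or preadipocyte genes were higher.

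A minority of the cytochrome P450 genes differed between the fat depots, and the gene differences past 2-fold all lay on the side of BAT. A difference was called for 18 of the 73 genes (24.7%), where one was called for 38.4% of all genes. Higher expression in BAT was called for 12 genes (16.4%), against 21% of all genes, and higher expression in sWAT for 6 genes (8.22%), against 17.5% of all genes. At 2-fold or more 6 genes were called (8.22%, against 15.1% of all genes), each of them higher in BAT, where 7.13% of all genes were. None was 2-fold higher in sWAT by limma, also at an unadjusted p under 0.05 (0 genes), while 8% of all genes were. The counts were 24 higher in BAT and 4 in sWAT without the replicate block, 6 and 1 without replicate 2, 7 and 4 without replicate 1, and 6 and 6 without replicate 4. Leaving out the arrays of low 5′ signal gave 29 called genes in both directions together, and leaving out the replicate block gave 28. Without any threshold on fold, 24 genes were higher in BAT and 7 in sWAT at an unadjusted p under 0.05. The shares of all genes at that threshold and in those other settings were not counted. The median difference of the 73 genes was 0.23 log2 units, against 0.15 for all genes. Of the 73 genes 58 lay above 0, with the share over all genes not counted. The 4 values of a tissue did not overlap those of the other tissue for 34 of the 73 genes (46.6%), against 45.4% of all genes. Counted singly, 25 of the 98 probe sets were called (25.5%, against 32.4% of all probe sets), of which 18 were higher in BAT (18.4%, against 15.1%) and 7 higher in sWAT (7.14%, against 17.3%). At 2-fold or more 12 were called (12.2%, against 15.7%), 11 higher in BAT (11.2%, against 6.1%) and 1 higher in sWAT (1.02%, against 9.56%).

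**Figure D1:**
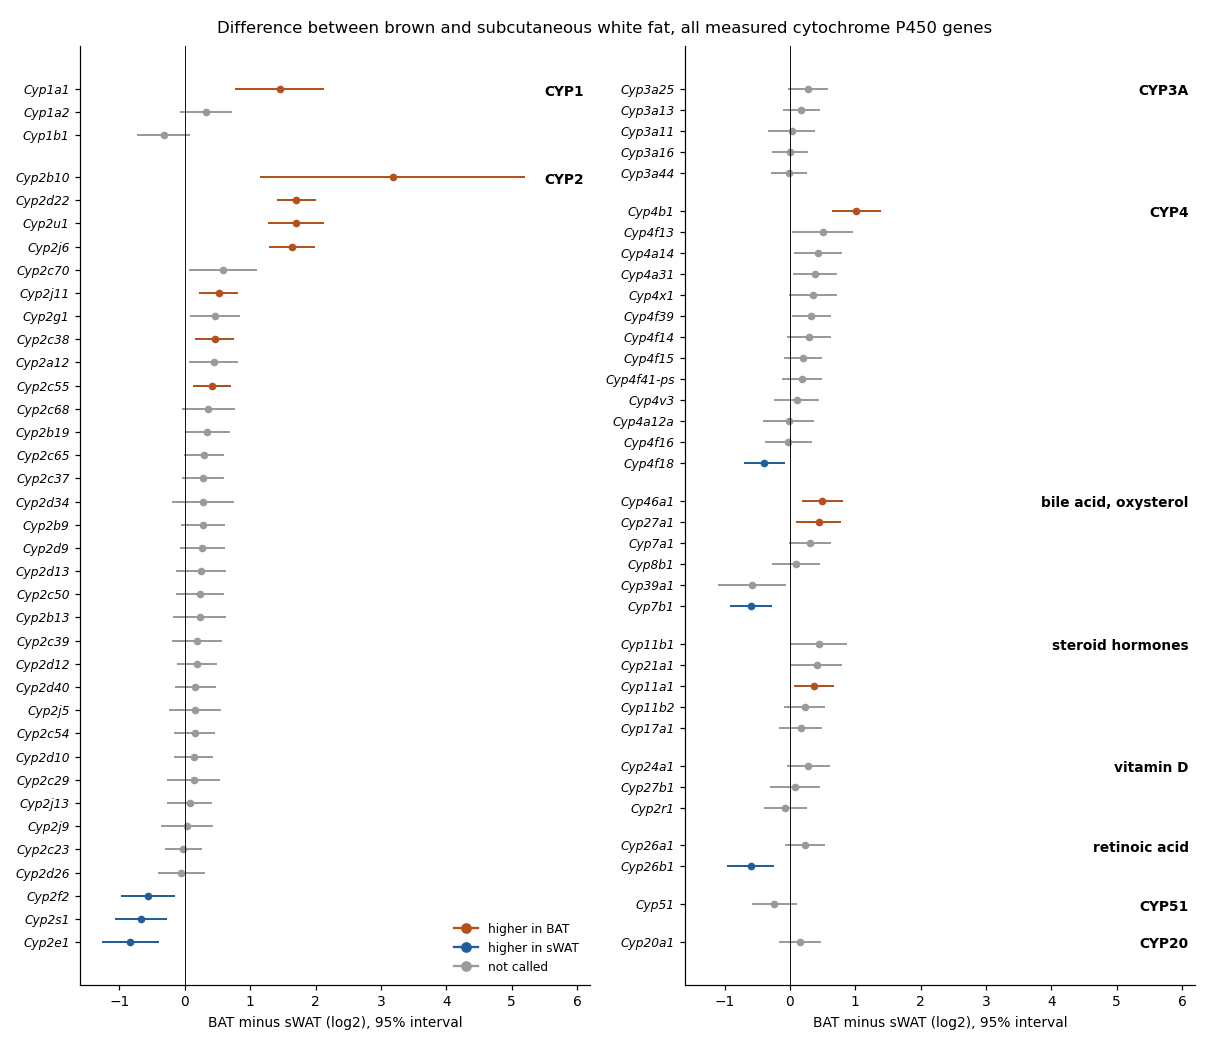
Difference BAT minus sWAT in log2 units (horizontal axis) for each of the 73 cytochrome P450 genes, grouped by role, with 95% intervals of the limma fit (4 replicates per tissue). Orange marks the 12 genes called higher in BAT, blue the 6 called higher in sWAT, and grey the 55 not called. Cyp2b10 had the highest difference and the widest interval, and Cyp2e1 the lowest difference.

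The 6 genes at least 2-fold higher in BAT came from 6 subfamilies. They were Cyp2b10, Cyp2d22, Cyp2u1, Cyp2j6, Cyp1a1 and Cyp4b1, and in each the lowest BAT value lay above the highest sWAT value. Stretches of 250 bases before the transcription start were available from RefSeq (build GRCm38.p6) for 52 of the 73 genes. For Cyp2d22 and Cyp2u1 no such stretch was at hand. Those of Cyp1a1 and Cyp2b10 are shown because, of the 6 genes, these varied most among the BAT replicates. GCGTG is marked as the core bound by the aryl hydrocarbon receptor, which drives Cyp1a1. Regulatory elements farther upstream than 250 bases lie outside the stretches, so a marked match need not be a known element. Capitals mark GCGTG on either strand (CACGC on the strand shown) and TATAAA, the TATA box, on the strand shown, and the motifs do not overlap.
Cyp1a1 (chr9:57697363-57697612, plus strand): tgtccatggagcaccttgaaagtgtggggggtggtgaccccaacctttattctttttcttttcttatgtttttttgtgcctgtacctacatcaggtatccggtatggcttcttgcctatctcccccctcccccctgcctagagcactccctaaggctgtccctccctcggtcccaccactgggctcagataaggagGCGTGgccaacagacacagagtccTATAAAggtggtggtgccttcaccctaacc
Cyp2b10 (chr7:25897408-25897657, plus strand): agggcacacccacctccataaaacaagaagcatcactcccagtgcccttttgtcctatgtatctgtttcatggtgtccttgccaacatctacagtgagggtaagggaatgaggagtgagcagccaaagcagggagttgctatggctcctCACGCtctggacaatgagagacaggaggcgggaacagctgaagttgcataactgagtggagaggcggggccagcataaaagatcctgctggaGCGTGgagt

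Cyp1a1 held GCGTG once, at position -54 from the start, and TATAAA at -30, and Cyp2b10 held GCGTG or its complement at 2 places. The stretches of Cyp2j6 and Cyp4b1 held neither motif. Over all 32851 RefSeq stretches of this length GCGTG was present in 28.2%, and it was present in 14 of the 59 stretches of cytochrome P450 genes (23.7%), some genes having several. TATAAA on the gene's strand was in 7.59% of all stretches and in 13 of the 59 (22.0%). AGGTCA, the element that many nuclear receptors bind, searched on both strands, was in 14% of all stretches and in 13 of the 59 (22.0%). The stretches of Cyp1a1 and Cyp2b10 held no AGGTCA. These are letter matches and not binding sites.

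Cyp2b10, a drug-metabolizing enzyme known as a target of the constitutive androstane receptor (Nr1i3), had the highest difference of the family. Its sWAT values were -0.65, -0.22, -0.43 and -0.49 in replicates 1 to 4, and its BAT values were 4.96, 1.22, 4.71 and 0.04. BAT replicates 1 and 3 were therefore more than 3 log2 units above BAT replicates 2 and 4, while the sWAT replicates lay close together. The difference was 3.18 ± 0.85 (9.06-fold, adjusted p = 0.024 by limma), with an SD of 2.48 among the BAT replicates and 0.18 among those of sWAT. The paired differences were 5.61, 1.44, 5.14 and 0.53. The call was lost without replicate 1 (2.37, adjusted p = 0.10) and without replicate 3 (2.53, adjusted p = 0.076), and the difference was 3.20 without the arrays of low 5′ signal. Its 3 probe sets gave 3.79, 3.46 and 2.29, and the first 2 of these may also take up RNA of related genes by their array identifiers. Brown adipocyte genes averaged 2.52, 2.81, 2.66 and 1.40 in BAT replicates 1 to 4. The part of cell composition in the spread of Cyp2b10 was not tested. The other 3 measured Cyp2b genes, Cyp2b9, Cyp2b13 and Cyp2b19, had differences of 0.27, 0.23 and 0.34 and were not called.

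Cyp2d22, regarded as the mouse counterpart of the human drug-metabolizing enzyme CYP2D6, had the most even difference. Its sWAT values were -0.56, -0.44, -0.69 and -1.05, and its BAT values were 1.07, 1.41, 1.10 and 0.50. Each of the 4 pairs differed by 1.56 to 1.85. The difference was 1.71 ± 0.12 (3.27-fold, adjusted p = 0.00010), and both probe sets, at 2.07 and 1.34, were called. The other 7 Cyp2d genes ran from -0.06 (Cyp2d26) to 0.28 (Cyp2d34) and none was called by limma or by the paired test of the methods, also with 0 of them at an unadjusted p under 0.05. In the RefSeq gene order Cyp2d22 stands at the end of the run of these genes.

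Cyp2u1, which hydroxylates arachidonic acid and other long-chain fatty acids, had sWAT values of -0.53, -0.47, -0.69 and -0.59. Its BAT values were 1.05, 1.67, 1.21 and 0.59, so that BAT replicate 4 was the lowest of that tissue. The difference was 1.70 ± 0.17 (3.26-fold, adjusted p = 0.00044), with probe sets at 2.09 and 1.31, both called.

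Cyp2j6 belongs to the arachidonic acid epoxygenases. In sWAT it was at -0.85, -0.54, -0.79 and -1.25, and in BAT at 1.07, 0.74, 0.97 and 0.34. The difference was 1.64 ± 0.14 (3.11-fold, adjusted p = 0.00023), with probe sets at 1.99 and 1.29, both called. Of the other 4 Cyp2j genes, Cyp2j11 rose by 0.52 ± 0.12 (adjusted p = 0.013), a call lost without replicate 2 or 4. Cyp2j9 and Cyp2j5, which follow Cyp2j6 directly in the RefSeq gene order, had differences of 0.03 and 0.15 and were not called, as was Cyp2j13 at 0.07.

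Cyp1a1, the enzyme through which the aryl hydrocarbon receptor is most often read out, had sWAT values of -0.44, -0.39, -0.35 and -0.28. In BAT it was at 1.46, 0.15, 1.94 and 0.80, and BAT replicate 2 was nearest to sWAT. The difference was 1.45 ± 0.28 (2.74-fold, adjusted p = 0.0067), and by the paired test of the methods the adjusted p was 0.098. Its adjacent relative Cyp1a2 had a difference of 0.32 ± 0.16 (adjusted p = 0.15). Cyp1b1, which oxidizes oestrogens and is known from fibroblast-like cells, had a difference of -0.32 ± 0.16 (adjusted p = 0.155) with probe sets at -0.63, -0.53 and 0.18, of which the one at -0.53 was called over all probe sets. Without replicate 4, the gene was called at -0.50 (adjusted p = 0.048). The fibroblast or preadipocyte genes averaged -1.57, -1.04, -1.15 and 0.32 in BAT and between 0.09 and 1.04 in sWAT, and their part in the Cyp1b1 values was not tested.

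Cyp4b1, an enzyme that hydroxylates fatty acids and activates several lung toxins, was the last of the 6. It was at -0.97, -0.28, -0.76 and -0.51 in sWAT and at 0.47, 0.46, 0.33 and 0.28 in BAT. The SD was 0.30 among the sWAT replicates and 0.096 among those of BAT. The difference was 1.01 ± 0.15 (2.02-fold, adjusted p = 0.0023), and it lay between 0.87 and 1.11 when each replicate was left out and at 0.95, under 2-fold, with arrays centred on their medians.

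**Figure D2:**
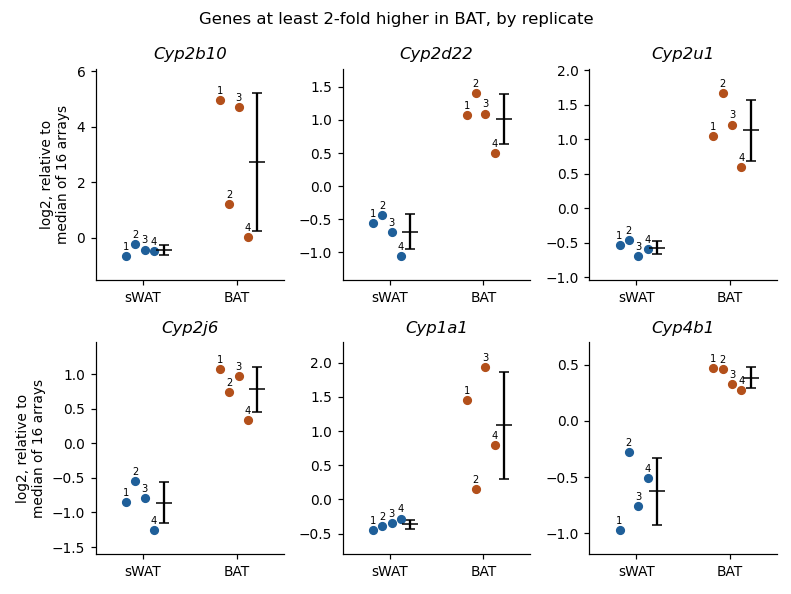
Values of the 6 genes at least 2-fold higher in BAT (vertical axes, log2 relative to the median of 16 arrays; scales differ between panels). Numbered points are the replicates and the black bar is their mean with 1 SD (n = 4). Cyp2b10 and Cyp1a1 spread most in BAT, with SDs of 2.48 and 0.78.

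In pair 4, the pair in which the sex-linked genes did not differ between the tissues as they did in pairs 1 to 3, the difference was 1.56 for Cyp2d22, 1.59 for Cyp2j6, 1.19 for Cyp2u1 and 1.08 for Cyp1a1. It was 0.79 for Cyp4b1 and 0.53 for Cyp2b10, both under 2-fold. All 18 called genes differed in pair 4 in the direction of their call, 4 of them by 2-fold or more, though pair 4 is itself part of the fit. The part of sex in the other differences was not tested.

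The CYP2 genes, mostly enzymes of drugs, pollutants and arachidonic acid, formed the largest group, with 34 genes, of which 7 were higher in BAT and 3 higher in sWAT, where 21% and 17.5% of all genes were. The Cyp2c subfamily had 11 measured genes and differences from -0.02 (Cyp2c23) to 0.58 (Cyp2c70). Cyp2c38 was at -0.18, -0.25, -0.15 and -0.08 in sWAT and at 0.39, 0.33, 0.08 and 0.34 in BAT, a difference of 0.46 ± 0.12 (adjusted p = 0.024). Cyp2c55 was at -0.20, -0.25, -0.28 and -0.24 in sWAT and at 0.38, 0.16, 0.15 and 0.03 in BAT, a difference of 0.42 ± 0.12 (adjusted p = 0.027). Both changes were below 1.5-fold (1.37-fold and 1.34-fold). The call of Cyp2c38 was lost without replicate 1, 2 or 4, and that of Cyp2c55 when any of the 4 replicates was left out. Cyp2c70, with the higher difference, was not called (0.58 ± 0.21, adjusted p = 0.068) but was called without the replicate block (adjusted p = 0.029). BAT replicate 1 at 0.89, or 0.56 without its array of low 5′ signal, lay above the other BAT replicates at 0.07 to 0.43.

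Cyp2e1, which oxidizes ethanol, acetone and fatty acids, had the lowest difference of the family and overlapped between the tissues. Its sWAT values were -1.28, 0.02, 1.21 and 1.33, and its BAT values were -2.0, -1.09, 0.00 and 1.04. All 4 BAT values were lower than the sWAT value of the same number, by 0.72, 1.12, 1.21 and 0.29 log2 units. The difference came to -0.83 ± 0.18, or 1.78-fold toward sWAT (adjusted p = 0.0097), and without the replicate block the adjusted p was 0.36, so the call rests on the pairing of the numbers. The Xist values go against that pairing for numbers 1 to 3. The SD within a tissue was 1.22 in sWAT and 1.32 in BAT, above the difference between the tissues.

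Cyp2s1, an enzyme of epithelia outside the liver, fell to -0.29, -0.51, -0.31 and -0.14 in BAT from 0.07, 0.44, 0.71 and 0.22 in sWAT. Its groups did not overlap, and the difference was -0.67 ± 0.16 (adjusted p = 0.016). The call of Cyp2s1 was lost without replicate 2, with second arrays alone and by the paired test of the methods. Cyp2f2, known from the club cells of the airways, was at 0.999, 0.21, 0.85 and -0.17 in sWAT and at 0.17, -0.31, -0.04 and -0.18 in BAT. Its groups overlapped, the pair 4 difference was -0.01, and the difference of -0.56 ± 0.17 (adjusted p = 0.037) had an adjusted p of 0.087 without the replicate block. The call of Cyp2f2 was also lost without replicate 1, 2 or 3, with second arrays alone and by the paired test of the methods. The epithelial genes Krt5, Krt14, Krt8, Krt18, Krt19, Epcam and Cdh1 did not move one way. Of these 7, 3 were higher in BAT (Krt5, Krt14 and Krt19, at 0.48 to 0.57). The 2 higher in sWAT, Cdh1 at -1.29 and Epcam at -1.12, had larger differences. The part of epithelial cells in the Cyp2s1 and Cyp2f2 values was not tested.

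The CYP3A enzymes, which oxidize many drugs and steroids in liver and gut, did not pass the test. The 5 measured genes ran from -0.01 (Cyp3a44) to 0.28 (Cyp3a25). By limma 0 were called, against 38.4% of all genes, and 0 had an unadjusted p under 0.05. Cyp3a25 was at -0.14, -0.09, -0.16 and -0.18 in sWAT and at 0.09, 0.06, 0.36 and 0.05 in BAT, a difference of 0.28 ± 0.12 (adjusted p = 0.11) that was called without the replicate block (adjusted p = 0.042). The range over all 8 replicates was between 0.16 and 0.53 log2 units in these genes. Of 6 measured hepatocyte genes, Alb was higher in sWAT (difference -2.25) and the other 5, Apoa1, Apoa2, Fgb, Tat and Ttr, were not called.

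CYP4 enzymes hydroxylate the end of fatty acid and eicosanoid chains. With the pseudogene Cyp4f41-ps, 13 CYP4 genes were measured. Of these, Cyp4b1 was higher in BAT, Cyp4f18 was higher in sWAT and 11 were not called. Of all genes, 21% were called higher in BAT and 17.5% higher in sWAT. Without the replicate block 7 were higher in BAT, with Cyp4a14 (adjusted p = 0.022), Cyp4a31 (0.016), Cyp4f13 (0.034), Cyp4x1, Cyp4f14 and Cyp4f39 joining Cyp4b1, and 0 were higher in sWAT by limma, where 1 had an unadjusted p under 0.05 with the block. Cyp4a14, a classic target of the fatty acid receptor PPARα (Ppara), had a difference of 0.43 ± 0.15 (adjusted p = 0.057), with sWAT values of -0.36, -0.20, -0.02 and -0.22 and BAT values of 0.51, -0.00, 0.24 and 0.17. Cyp4a31 had 0.38 ± 0.13 (adjusted p = 0.058) and Cyp4a12a had -0.02 ± 0.16. Ppara itself differed by 4.32 ± 0.23 (adjusted p = 5.1e-05), with all BAT values between 1.95 and 3.20 and all sWAT values between -1.90 and -1.48. The 7 Cyp4f genes ran from -0.39 (Cyp4f18) to 0.50 (Cyp4f13, adjusted p = 0.077).

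Cyp4f18, known for inactivating leukotriene B4 in neutrophils, was at 0.16, 0.31, -0.04 and 0.65 in sWAT and at -0.01, -0.05, -0.42 and -0.01 in BAT. The groups overlapped through sWAT replicate 3, which rose to 0.33 without its array of low 5′ signal, while BAT replicate 1 rose to 0.21 without its own, above sWAT replicate 1. The difference was -0.39 ± 0.13 (adjusted p = 0.048), and the call was lost when any of the 4 replicates was left out. Its 2 probe sets disagreed, at -0.997 (called) and 0.21 (not called). Without the replicate block the adjusted p was 0.071, and without the arrays of low 5′ signal it was 0.0501. The neutrophil genes S100a8, S100a9, Elane, Ngp and Csf3r averaged -0.56, -0.13, 1.18 and 2.27 in sWAT and -0.15, -0.07, -0.37 and 0.91 in BAT, with 1 of 5 higher in sWAT, and their part in the Cyp4f18 values was not tested.

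**Figure D3:**
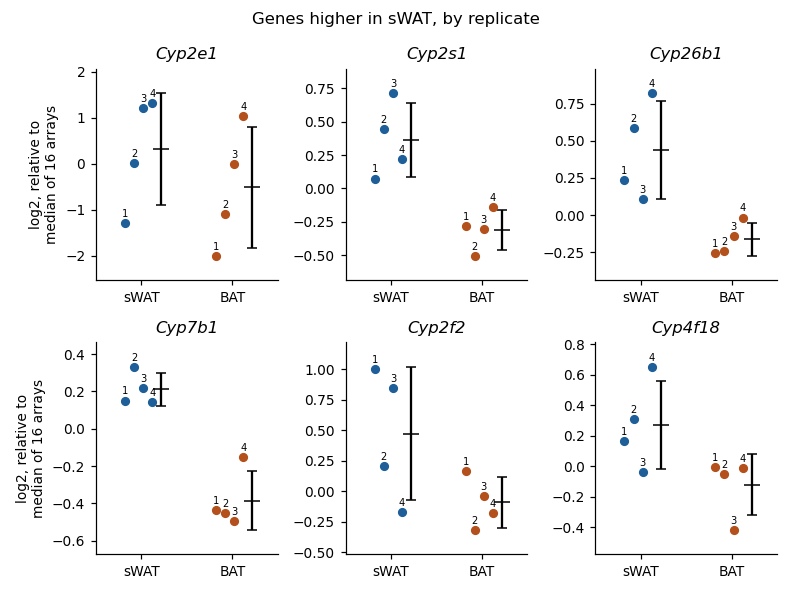
Values of the 6 genes higher in sWAT (vertical axes, log2 relative to the median of 16 arrays; scales differ between panels). Numbered points are the replicates and the black bar is their mean with 1 SD (n = 4). The tissues overlap for Cyp2e1, Cyp2f2 and Cyp4f18 and do not overlap for Cyp2s1, Cyp26b1 and Cyp7b1.

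Enzymes of bile acids and oxysterols, the hydroxylated forms of cholesterol, had calls in both directions. Of 6 genes 2 were higher in BAT and 1 higher in sWAT, where 21% and 17.5% of all genes were. Cyp7b1, which hydroxylates oxysterols, was at 0.15, 0.33, 0.22 and 0.15 in sWAT and at -0.44, -0.45, -0.49 and -0.15 in BAT, a difference of -0.60 ± 0.13 (adjusted p = 0.011). Its call was lost without replicate 2 and by the paired test of the methods. Its probe sets gave -1.27, -0.65 and 0.14, and the one at -1.27 was the only cytochrome P450 probe set called at 2-fold higher in sWAT. Cyp27a1, the mitochondrial sterol hydroxylase, was at -0.05, 0.00, -0.22 and -0.24 in sWAT and at 0.12, 0.29, 0.35 and 0.49 in BAT, a difference of 0.44 ± 0.14 (adjusted p = 0.041). Its probe sets gave 0.93 and -0.05, the latter a probe set that may take up other RNA, so the mean of the gene lies below the value of the other. The call was lost without replicate 2, 3 or 4, with second arrays alone and with arrays centred on their medians.

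Cyp46a1, which hydroxylates cholesterol in neurons, rose by 0.50 ± 0.13 (adjusted p = 0.021), from values of -0.38, -0.38, -0.17 and -0.07 in sWAT to 0.34, 0.02, 0.10 and 0.52 in BAT, and its call was lost without replicate 1, 2 or 4 and with first arrays alone. Cyp39a1, which also acts on oxysterols, had a difference of -0.58 ± 0.21 (adjusted p = 0.071, or 0.029 without the replicate block, where it was called higher in sWAT), and the sWAT value of replicate 4, at -0.14, lay within the BAT values of -0.44 to 0.01. Cyp7a1, the rate-limiting enzyme of bile acid synthesis in liver, had 0.31 ± 0.13 (adjusted p = 0.098), and 1 of its 2 probe sets, at 0.50, was called. Cyp8b1, which sets the make-up of bile acids, had 0.10 ± 0.15.

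**Figure D4:**
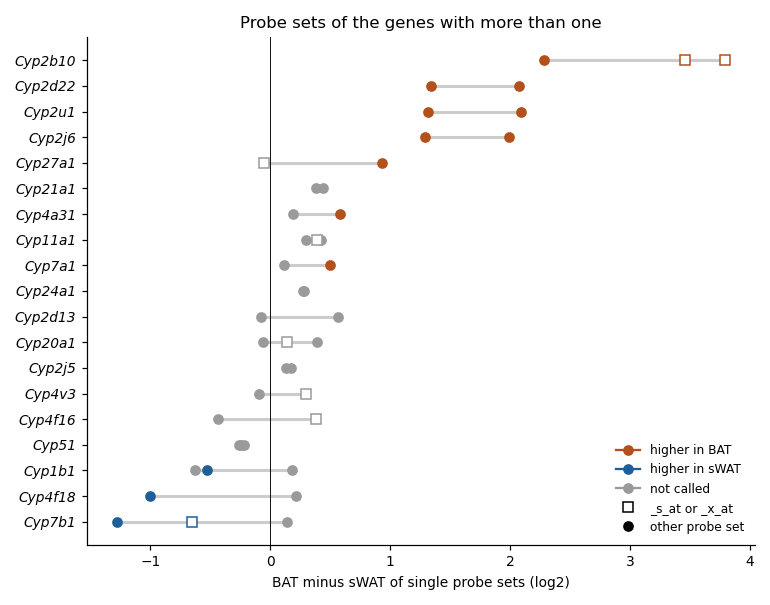
Difference BAT minus sWAT in log2 units (horizontal axis) of each probe set of the 19 genes with more than 1 single-symbol probe set. Squares are probe sets whose identifier marks possible hybridization to other transcripts, colours give the call over all probe sets, and grey lines join the probe sets of a gene. Probe sets of Cyp2b10, Cyp2d22, Cyp2u1 and Cyp2j6 all lie above 1, while those of Cyp7b1, Cyp4f18, Cyp1b1 and Cyp27a1 lie on both sides of 0.

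The enzymes of steroid hormone synthesis had 1 of 5 genes called, higher in BAT, where 21% of all genes were. Cyp11a1, the mitochondrial enzyme that cleaves the cholesterol side chain, was at -0.13, -0.26, -0.13 and -0.15 in sWAT and at 0.48, 0.07, 0.12 and 0.14 in BAT. The difference was 0.37 ± 0.12 (adjusted p = 0.049), and none of its 3 probe sets, at 0.30 to 0.42, was called singly. The call was lost when arrays were centred on their medians (adjusted p = 0.054) and when any replicate was left out. Cyp11b1 had 0.44 ± 0.18 (adjusted p = 0.093), Cyp21a1 0.41 ± 0.16 (adjusted p = 0.078) and Cyp17a1 0.16 ± 0.13 (adjusted p = 0.34). Of 4 measured adrenal cortex genes 0 were called by limma, with 2 higher in BAT at an unadjusted p under 0.05.

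Of the 2 measured retinoic acid hydroxylases, which clear the active form of vitamin A, 1 was higher in sWAT, where 17.5% of all genes were. Cyp26b1 was at 0.23, 0.59, 0.11 and 0.82 in sWAT and at -0.26, -0.24, -0.14 and -0.02 in BAT, a difference of -0.60 ± 0.14 (adjusted p = 0.016) that was largest in pairs 2 and 4 (-0.83 and -0.84). Its call was lost without replicate 2 or 4, with first arrays alone and by the paired test of the methods. Cyp26a1 had 0.23 ± 0.12 (adjusted p = 0.17). The 3 vitamin D enzymes had 0 calls by limma, against 38.4% of all genes, and 0 at an unadjusted p under 0.05. Their differences were 0.28 for Cyp24a1, which degrades the active hormone, 0.08 for Cyp27b1, which makes it, and -0.07 for Cyp2r1, which acts before it.

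Cyp51, the lanosterol demethylase of cholesterol synthesis, had sWAT values of 0.22, 0.22, 0.19 and -0.06 and BAT values of -0.03, -0.05, -0.36 and 0.07. The difference was -0.24 ± 0.14 (adjusted p = 0.21), its 3 probe sets lay between -0.26 and -0.22, and pair 4 ran the other way (0.12). Srebf2, the main activator of cholesterol synthesis genes, was lower in BAT by 0.89 ± 0.21 (adjusted p = 0.015). Cyp20a1, whose substrate is not known, had 0.16 ± 0.13 (adjusted p = 0.35).

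Values of the family were not spread evenly over the samples. BAT replicate 1 was the highest of the 8 replicates for 42 of the 73 genes, where it was the highest for 29.4% of all genes, and the median of the 73 genes there was 0.30, against -0.13 to 0.12 in the other 7. Without the arrays of low 5′ signal it was the highest for 25 genes, with a median of 0.18. Without those arrays 24 genes were called higher in BAT and 5 higher in sWAT, with the shares of all genes not counted. The range over the 8 replicates stayed below 1 log2 unit for 57 genes and reached 2 log2 units for 6, and 7 of the 18 called genes had a range below 1.

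Among the proteins that supply electrons to these enzymes, listed with the haem-binding proteins Pgrmc1 and Pgrmc2, the clearest difference was that of ferredoxin. Of 9 measured genes 4 were higher in BAT, where 21% of all genes were, and 0 higher in sWAT by limma, where 17.5% were, also with 0 in sWAT at an unadjusted p under 0.05. Fdx1, the ferredoxin that serves the mitochondrial enzymes such as Cyp27a1 and Cyp11a1, was at -0.86, -1.01, -0.50 and -1.30 in sWAT and at 0.88, 1.08, 0.88 and 0.46 in BAT, a difference of 1.74 ± 0.14 (adjusted p = 0.00019). The mitochondrial cytochrome b5 gene Cyb5b differed by 0.91, Pgrmc2 by 0.76 and Cyb5r1 by 0.38, while Cyb5a, of the endoplasmic reticulum form, had 0.27 ± 0.12 (adjusted p = 0.12). Por, Fdxr and Fdx1l were not analysed here.

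Enzymes that act on the products of cytochrome P450, or beside it, had 8 of 18 genes higher in BAT (21% of all genes) and 0 higher in sWAT by limma (17.5% of all genes), with 1 higher in sWAT at an unadjusted p under 0.05. Ephx2, the soluble epoxide hydrolase that breaks down arachidonic acid epoxides, was at -1.43, -0.46, -0.45 and -0.89 in sWAT and at 1.13, 0.83, 0.996 and 0.41 in BAT, a difference of 1.65 ± 0.23 (adjusted p = 0.0017). Fmo1, a flavin monooxygenase, differed by 2.29 ± 0.19 and Gsta4, a glutathione transferase of lipid aldehydes, by 1.77 ± 0.12. Ephx1, the microsomal epoxide hydrolase, had -0.63 ± 0.31 (adjusted p = 0.14), with BAT replicate 1 at -1.65 and the other BAT replicates between -0.25 and 0.05.

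Of 20 regulators of cytochrome P450 genes, 7 were higher in BAT, against 21% of all genes, and 1, Srebf2, was higher in sWAT, against 17.5%. Ahr, the receptor that drives Cyp1a1, had 0.27 ± 0.19 (adjusted p = 0.27). Tiparp, another target of that receptor, was at -0.44, -0.20, -0.55 and -0.65 in sWAT and at 1.53, 1.51, 0.26 and 0.41 in BAT, a difference of 1.39 ± 0.21 (adjusted p = 0.0022). Cyp1a1 was at 1.46, 0.15, 1.94 and 0.80 in BAT, and the part of the receptor in either gene was not tested. Nr1i3, the receptor that drives Cyp2b10, had 0.34 ± 0.11 (adjusted p = 0.052), with BAT values of 0.26, 0.01, 0.04 and 0.27.

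**Figure D5:**
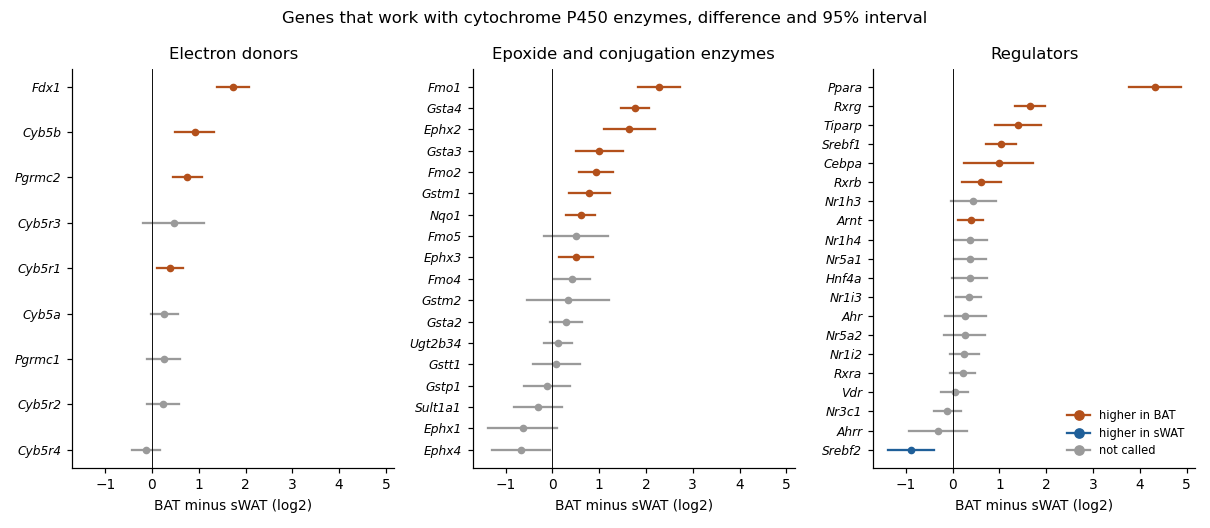
Difference BAT minus sWAT in log2 units (horizontal axes) with 95% intervals for 9 electron donors and related proteins, 18 epoxide and conjugation enzymes and 20 regulators. Orange is called higher in BAT, blue higher in sWAT and grey not called. Fdx1, Fmo1 and Ppara, at 1.74, 2.29 and 4.32, had the highest difference of their panels.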

How the data were processed

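Total RNA was hybridized to Affymetrix mouse genome arrays. The authors imported the scans into GeneSpring GX, summarized them by RMA with quantile normalization and subtracted the median of all samples, and deposited the resulting log2 values. These hold no signal level, which leaves detection unknown, and precision is limited by the 4 replicates per tissue. The 2 arrays of a replicate correlated at 0.34 for sWAT replicate 3 and 0.51 for BAT replicate 1, against 0.85 to 0.92 for the others. The 16 value columns were matched to samples by the labels, and the 2 arrays of each replicate were averaged. Gene names came from the platform annotation (34958 with 1 gene, 932 with several, 9211 with none), and a gene is the mean of its single-symbol probe sets. BAT minus sWAT was fitted for all genes and all probe sets with limma 3.58.1 (lmFit, eBayes) in R 4.3.3. The methods' test is paired, so the replicate number was a block, although the Xist values go against shared animals for numbers 1 to 3. The calls therefore depend on this choice. The fit without the block called 28 cytochrome P450 genes, losing 3 of the 18 and gaining 13. Deviations from the tissue means, over all probe sets, correlated between samples of equal number at -0.23, 0.06, -0.35 and 0.23. The Benjamini-Hochberg adjustment ran over all features. The labels do not state separate animals for each sample, so p-values measure the spread between these samples.

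The authors' table of differences was used only to check the scale. Genes were named where called at 2-fold or where highest or lowest in their role, and the other called genes and some uncalled relatives were added after their values were seen. Members, marker and partner lists were chosen with earlier results of these data known. Of the marker lists not given elsewhere, 2 of 5 adipocyte genes were higher in BAT, and 1 macrophage gene was higher in BAT and 3 of 6 in sWAT. The fit was tested on simulated data. Figures used matplotlib 3.10.9 in Python 3.11.15.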

Additional observations from a re-analysis of the deposited data

Results flagged for a closer look

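The named genes gave 56 groups of 4 replicates, each tested at its highest and its lowest value. In these, 9 values stood apart from the other 3 by most of the group's range (Dixon's test at 95%). Chance alone would mark about 1 group in 20, though the groups share samples and are not independent. Cyp11a1 had a low sWAT value in replicate 2 (-0.26, the nearest at -0.15) and a high BAT value in replicate 1 (0.48, the nearest at 0.14). BAT replicate 3 was low for Cyp17a1 (-0.15) and Cyp4f18 (-0.42) and high for Cyp3a25 (0.36). BAT replicate 4 was high for Cyp20a1 (0.32) and Cyp7b1 (-0.15). In sWAT, replicate 3 was high for Cyp1b1 (0.59) and replicate 4 was low for Cyp51 (-0.057). Without the arrays of low 5′ signal, Cyp11a1 in BAT replicate 1 was 0.30 and Cyp1b1 in sWAT replicate 3 was 0.28, and sWAT replicate 3, at -0.14, took the lowest place for Cyp51.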

How the results depend on the processing

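In the settings below, shares of all genes were not counted. Without the replicate block 24 genes rose in BAT and 4 in sWAT. Of the 18 genes called with it, 15 remained, and Cyp2e1, Cyp2f2 and Cyp4f18 were lost. The number of genes higher in BAT was also 24 without the arrays of low 5′ signal. By the paired test of the methods, 6 genes passed toward BAT and 0 toward sWAT (unadjusted limma p under 0.05: 7), and Cyp2b10, Cyp1a1 and Cyp7b1 were among the 12 lost. That test called 5 probe sets toward BAT and 0 toward sWAT, with 4 and 0 at 2-fold. With first arrays alone 4 probe sets were higher in sWAT. At 2-fold the main count of 1 probe set higher in sWAT became 3 with second arrays alone, 2 without the arrays of low 5′ signal and 2 with arrays centred on their medians. Leaving out each replicate gave 6 to 10 genes higher in BAT and 1 to 6 in sWAT, 9 to 14 and 2 to 9 probe sets, and 7 to 12 and 1 to 2 at 2-fold. Without replicate 2 only 7 of the 18 genes remained. Directions reversed for 4 uncalled genes: Cyp20a1 with first arrays (-0.038), Cyp2r1 with second arrays (0.298) and without the arrays of low 5′ signal (0.0089), Cyp3a44 with first arrays (0.0095) and when a replicate was left out (-0.039 to 0.022), and Cyp51 with second arrays (0.067). Cyp2d22, Cyp2u1, Cyp2j6 and Cyp4b1 were called under every alternative. The causes were not tested.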

Other observations

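The 4 probe sets that name several cytochrome P450 genes were left out of the gene values. The probe set shared by Cyp4a31 and Cyp4a10 had a difference of 0.74 ± 0.23 (adjusted p = 0.047 over all probe sets), with BAT replicate 1 at 1.09 and BAT replicate 4 at -0.02. The one shared by Cyp2a5 and Cyp2a4 had 0.34 ± 0.17 (adjusted p = 0.16). Those of the Cyp3a41 pair and of Cyp4f37 and Cyp4f16 had 0.00 and 0.10. Ptgis and Tbxas1, which code for the prostacyclin and thromboxane synthases and are cytochrome P450 enzymes by sequence but not by symbol, had 0.53 and -0.18 and were not called.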
